A study of Mus musculus with 18 samples.

Results

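The sodium pump of animal cells is built from a catalytic alpha subunit, a glycosylated beta subunit and, in many tissues, a small FXYD protein. The 8 genes described here are those whose symbols name a beta subunit or an FXYD regulator in the list chosen for this account: Atp1b1, Atp1b2, Atp1b3, Fxyd2, Fxyd3, Fxyd4, Fxyd5 and Fxyd6. They are 8 of the 24111 genes in the count table, and all 8 were found there and in the FPKM table by symbol. The catalytic alpha subunit is not analysed here.

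RNA was sequenced from mpkCCD cells (mpkCCD11 per the labels), an immortalised mouse line that models principal cells, the sodium- and water-transporting cells of the collecting duct. Confluent monolayers on permeable supports were kept in serum-free medium for 24 h and then held for another 24 h in serum-free medium with 0.1 nM dDAVP (9 libraries) or without it (control, 9 libraries). dDAVP, or desmopressin, is a vasopressin analogue that acts on the V2 receptor. Before that, cells of both groups had grown to confluence in medium with serum, transferrin, selenium and hormones, namely the glucocorticoid dexamethasone, insulin, triiodothyronine and epidermal growth factor. No library comes from another cell line or from tissue.

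The pump moves sodium out of the cell and potassium in across the basolateral membrane, and in collecting duct cells this drives the sodium entry through apical channels that aldosterone and vasopressin regulate. The beta subunit is needed for the alpha subunit to fold and reach the membrane. FXYD proteins are single-span membrane proteins that sit beside the alpha subunit and shift its affinity for sodium or potassium. Fxyd4, also called CHIF, is known from the collecting duct as a corticosteroid-induced regulator that raises the affinity for sodium, whereas Fxyd2, the gamma subunit, lowers it and is best known from other nephron segments.

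The sequences upstream of the start sites are given for Atp1b1 and Fxyd4, the members with the highest levels in libraries 1 to 3, and for Atp1b3, the other abundant beta subunit, as a contrast. Each run holds the 250 bases before the RefSeq start on GRCm38.p6, written 5′ to 3′ on the gene's strand. Capitals mark matches on either strand to GGGCGG (the GC box), to CCAAT or to TGACG (the short form of the cAMP response element, CRE), and a match on the other strand shows as its reverse complement.
Atp1b1: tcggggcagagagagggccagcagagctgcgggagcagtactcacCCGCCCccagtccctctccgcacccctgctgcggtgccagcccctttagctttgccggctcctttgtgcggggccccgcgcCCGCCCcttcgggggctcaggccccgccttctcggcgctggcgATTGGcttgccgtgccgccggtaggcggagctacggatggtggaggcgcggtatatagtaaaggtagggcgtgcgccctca
Fxyd4: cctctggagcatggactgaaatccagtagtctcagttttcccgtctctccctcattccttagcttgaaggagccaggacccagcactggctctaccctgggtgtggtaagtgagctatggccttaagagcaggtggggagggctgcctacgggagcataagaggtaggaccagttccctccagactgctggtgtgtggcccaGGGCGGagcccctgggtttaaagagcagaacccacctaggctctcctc
Atp1b3: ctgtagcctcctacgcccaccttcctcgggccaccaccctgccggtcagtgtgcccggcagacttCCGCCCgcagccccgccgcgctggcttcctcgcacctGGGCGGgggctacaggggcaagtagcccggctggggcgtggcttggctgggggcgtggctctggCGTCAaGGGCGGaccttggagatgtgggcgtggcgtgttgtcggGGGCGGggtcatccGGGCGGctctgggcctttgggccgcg
The windows lie at chr1:164458356-164458605, chr6:117937336-117937585 and chr9:96364432-96364681, all on the minus strand. That of Atp1b1 is 70.4% G or C and holds 2 GC boxes, at -205 and -124 from the start, and 1 CCAAT match at -81. The Fxyd4 window is 58% G or C and holds 1 GC box at -48. The Atp1b3 window is 73.6% G or C and holds 5 GC boxes and 1 TGACG match at -84, and RefSeq gives this gene another start whose window holds none of these motifs. Of 32851 such windows over the genome, 32.74% held GGGCGG, 33.85% CCAAT, 17.77% TGACG and 12.37% TATAAA, with both strands counted, and their median G or C content was 52.4%. The full CRE, TGACGTCA, which contains the short form, was in 1.546% of windows and in none of those of the 6 members that RefSeq's table matched (all but Atp1b2 and Fxyd2). No match says only that these letters are not in this window.

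The libraries are numbered 1 to 9 in both groups, and each set of 3 numbers (1 to 3, 4 to 6 and 7 to 9) is also described by itself, since 37.5% and 49% of genes differed between sets of control libraries. What the sets stand for is not given in the sources used here. Counted reads came to 22.2 to 27.7 M in libraries 1 to 3, 27.3 to 37.8 M in 4 to 6 and 41.4 to 105.9 M in 7 to 9, and the share of counts in ribosomal protein genes was 20.2 to 27.9%, 0.849 to 10.2% and 10.0 to 15.8%. Library dDAVP 6 stood apart, with 0.849% of counts in ribosomal protein genes and the fewest genes detected (10282). Libraries 7 to 9 also divided across the labels, a division chosen after the values were seen: log2 normalised counts (CPM, counts scaled to a common library size) correlated across genes at 0.813 to 0.964 within the libraries dDAVP 7, control 8 and control 9, and within dDAVP 8, dDAVP 9 and control 7, against 0.743 to 0.851 between them. Aqp2, the water channel gene that dDAVP is known to induce, was higher in all dDAVP than in all control libraries of each set, with 730 to 1205.5 against 9.947 to 15.84 FPKM in libraries 1 to 3, 35.01 to 761 against 18.62 to 30.19 FPKM in 4 to 6, and 374.2 to 2541.9 against 17.77 to 205.4 FPKM in 7 to 9. FPKM are counts scaled to gene length and to the counted reads of the library. Of 10 principal cell markers 9 had counts in dDAVP libraries (Elf5 had none) and all 10 had counts in control libraries, summing to 2677 to 20910 CPM with dDAVP and 1451 to 16616 CPM without. The 5 intercalated cell markers summed to 0.12 to 19.6 CPM with dDAVP and 0.042 to 13.7 CPM without. The endothelial markers Pecam1, Cdh5 and Kdr had 0 counts in all 18 libraries. Proximal tubule markers summed to 0.79 to 12.1 CPM with dDAVP and 1.86 to 8.22 CPM without. Those of thick ascending limb and distal convoluted tubule reached 45.7 CPM with dDAVP and 1.32 CPM without. Leukocyte markers reached 13.8 and 8.24 CPM, and fibroblast markers 0.18 and 1.08 CPM.

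Among the beta subunits, Atp1b1 was the most abundant member in libraries 1 to 3, where its groups did not overlap, and no comparison of dDAVP with control called it by the main test. Its gene lies on chromosome 1 from 164437109 to 164458355, minus strand (mm10, the same coordinates as GRCm38). Atp1b1 had 699, 584 and 667.4 FPKM in dDAVP libraries 1 to 3 and 325.4, 383.6 and 425.4 FPKM in control libraries 1 to 3. The lowest dDAVP library thus stood above the highest control library. The log2 fold change was 0.73 (SE 0.20), a fold of 1.65 with a 95% interval of 1.25 to 2.18, and edgeR's quasi-likelihood test gave an adjusted p of 0.229 (rank 154 of the 8991 genes tested), which missed the threshold of 0.05. In this set 0.456% of genes passed the threshold (41 of 8991), and none of the 4 members tested did. In bulk RNA such as this, fewer cells of a type and less RNA per cell cannot be told apart.

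In the set of libraries 4 to 6, Atp1b1 had 26.47, 74.92 and 31.44 FPKM under dDAVP and 11.89, 43.64 and 27.85 FPKM in control. These values lie far below those of libraries 1 to 3, and the groups overlapped. After scaling between the libraries of the set (normalised CPM), dDAVP libraries had 69.7, 133 and 196 CPM and control libraries 37.7, 73.0 and 54.4 CPM, so that only dDAVP 4 lay below the highest control library. With scaling factors from all 18 libraries instead, dDAVP libraries had 104.5 to 265.8 CPM and control libraries 56.26 to 92.33 CPM, with no overlap. The share of all genes without overlap on that scale was not worked out. The log2 fold change was 1.27 (SE 0.54, edgeR adjusted p = 0.999), and 0% of genes passed the threshold in this set (0 of 10387, with 479 at an unadjusted p under 0.05 and 29 by DESeq2). Without dDAVP library 6 the log2 fold change was 0.87 (SE 0.41). Scaling by library totals alone moved the median fold change of all genes by -0.34 on the log2 scale in this set.

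On the FPKM scale, Atp1b1 values in libraries 7 to 9 followed the division described above. The gene had 16.65, 117.5 and 86.56 FPKM in dDAVP libraries 7, 8 and 9. Control libraries 7, 8 and 9 had 79.58, 11.18 and 33.98 FPKM. The low libraries in FPKM were dDAVP 7, control 8 and control 9. After scaling between the libraries of the set, dDAVP libraries had 59.99, 187.2 and 140.8 CPM and control libraries 172.2, 38.36 and 147.5 CPM. Control 9 then lay above dDAVP 9 and was not among the low libraries. With scaling factors from all 18 libraries the groups overlapped as well (33.02 to 96.07 CPM with dDAVP, 21.6 to 88.68 CPM in control). The log2 fold change was 0.12 (SE 0.78, edgeR adjusted p = 0.992), and again 0% of genes passed (0 of 11367, with 590 at an unadjusted p under 0.05 and 94 by DESeq2). Without dDAVP library 8 or control library 8 the sign turned, to -0.25 and -0.30. Scaling by library totals alone moved the median of all genes by 0.59 on the log2 scale here.

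Across all 18 libraries Atp1b1 ranged from 16.65 to 699 FPKM (median 86.56) under dDAVP and from 11.18 to 425.4 FPKM (median 43.64) in control. The log2 fold change was 0.81 (SE 0.99) without any covariate, with an adjusted p that rounds to 1, and 0.77 (SE 0.32, edgeR adjusted p = 0.815) with the set as a term. In the fit without covariates 0% of 10121 genes passed (218 at an unadjusted p under 0.05, 12 by DESeq2, 1 with the replicate number as a block), whereas 0.079% did in the fit that holds the set (8 genes, and 1 with the block). Without dDAVP library 6 the set term fit gave 0.64 (SE 0.30) for Atp1b1. Neither fit called any of the 6 members that passed the filter on low counts. The permutations used CPM with scaling factors from all 18 libraries. With the labels permuted within the sets, the mean log2 difference of 0.77 gave a two-sided exact permutation p of 0.0272. The smallest p possible is 0.00025. This p of 0.0272 was not adjusted over the 8 members, among which it was the smallest. The next was 0.101, for Fxyd5. Permuted over all libraries without regard to set, the difference of Atp1b1 gave an exact permutation p of 0.485. The edgeR test of whether the effect differed between the sets gave an adjusted p of 0.988 for Atp1b1. Where libraries were weighted by their quality (limma voom), the set term fit called Atp1b1, with a log2 fold change of 0.80 and an adjusted p of 0.0101. Nothing in the labels says that equal numbers or any replicates are separate cultures, so these p-values measure the spread between libraries, which may be technical.

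**Figure D1:**
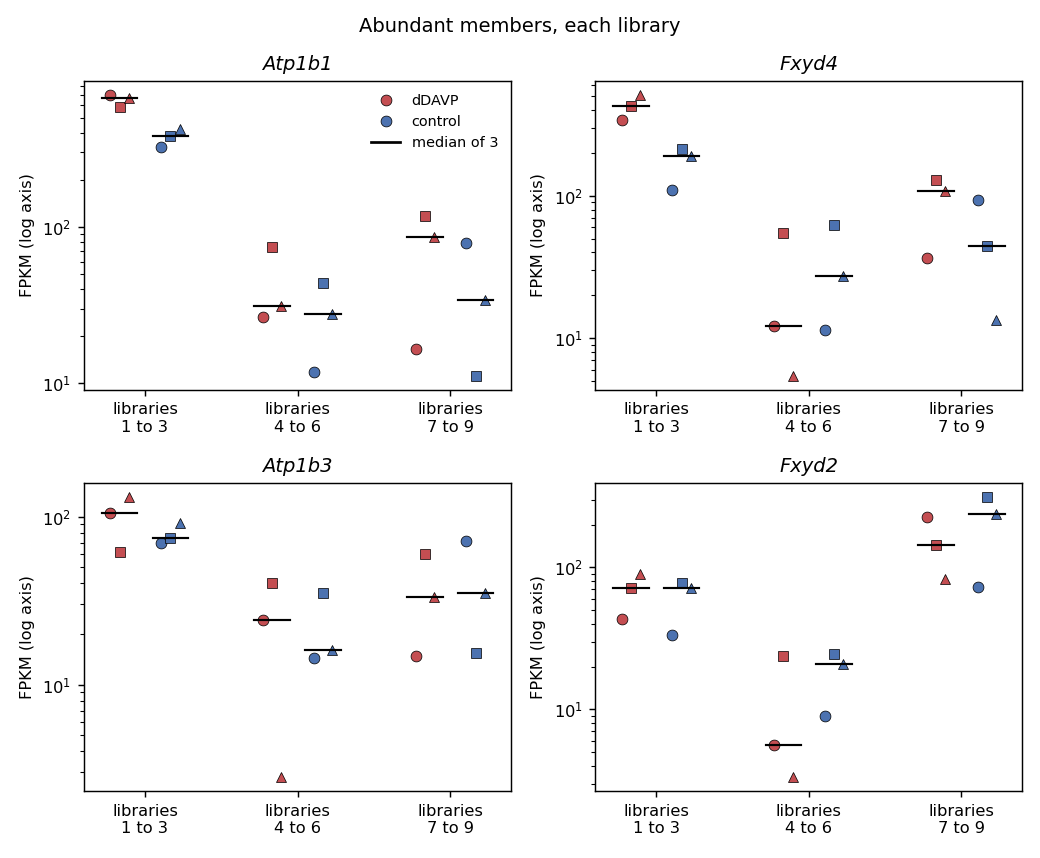
FPKM (log axis) of the 4 abundant genes in each library, dDAVP in red and control in blue, with circles, squares and triangles for the libraries of a set in number order and a line at the median. In libraries 1 to 3 all dDAVP points of Atp1b1 (584 to 699) lie above all control points (325.4 to 425.4), as do those of Fxyd4, while in libraries 4 to 9 the groups overlap for all 4 genes.

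Atp1b3, a widely expressed beta subunit (chromosome 9, 96332655 to 96364442, minus strand), did not separate the treatments in any set. It had 104.9, 61.3 and 131.3 FPKM in dDAVP libraries 1 to 3 and 69.3, 74.94 and 91.45 FPKM in control libraries 1 to 3. dDAVP 2 was the lowest of these 6 libraries and dDAVP 3 the highest. Libraries 4 to 6 gave 24.34, 40.24 and 2.802 FPKM with dDAVP and 14.34, 35.07 and 16.05 FPKM without. The value of dDAVP 6 was by far the lowest of all 18 libraries. Libraries 7 to 9 held 14.74, 59.89 and 33.28 FPKM with dDAVP and 71.93, 15.4 and 34.9 FPKM without. Log2 fold changes were 0.27 (SE 0.26), 0.18 (SE 0.55) and -0.83 (SE 0.70) in the sets, and -0.05 (SE 0.32, edgeR adjusted p = 0.990) with the set term, a fold of 0.966 with a 95% interval of 0.622 to 1.50. With the set term the sign turned under library totals only (0.07), voom with quality weights (0.18), without libraries 7 to 9 (0.28) and without dDAVP library 6 (0.06) or control library 9 (0.001). Within libraries 1 to 3 it turned without dDAVP library 3 (-0.02), and within 4 to 6 without dDAVP library 4 (-0.02) or 5 (-0.14), without control library 6 (-0.03), with FPKM (-0.42 and -0.51) and with the replicate block (-0.01).

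Atp1b2, the beta subunit known as an adhesion molecule of glia (chromosome 11, 69599736 to 69605942, minus strand), was near the detection limit. It had 0 counts in all of dDAVP libraries 1 to 3, and 0, 2 and 0 counts in control libraries 1 to 3. The highest levels were 1.131 FPKM (113 counts) in dDAVP 4, 0.7326 FPKM in dDAVP 5, 1.139 FPKM (114 counts) in control 5 and 1.022 FPKM (186 counts) in control 9. The gene did not pass the filter of the fits over all libraries, and its exact permutation p within sets was 0.725. A count of 0 allows up to 3 counts, which is 0.0142 to 0.359 normalised CPM depending on the library, by counting error only.

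Among the FXYD regulators, Fxyd4 had the largest fold change of the 4 members tested in libraries 1 to 3 (2.46), which passed the threshold in some fits and not in the main one. The gene lies on chromosome 6 from 117933559 to 117937692, minus strand, and the window printed above falls inside this span because RefSeq's start differs from GENCODE's. Fxyd4 had 341.5, 424.4 and 509.7 FPKM in dDAVP libraries 1 to 3, against 110.4, 212.5 and 191 FPKM in control libraries 1 to 3. Every dDAVP library stood above every control library. The log2 fold change was 1.30 (SE 0.28), a fold of 2.46 with a 95% interval of 1.67 to 3.61 (edgeR adjusted p = 0.0936, rank 63 of 8991 genes), which missed the threshold. DESeq2 called it (adjusted p = 0.00788), as did edgeR with the replicate block (adjusted p = 0.00758), without a filter on low counts (adjusted p = 0.00941) and without dDAVP library 1 (log2 fold change 1.52, adjusted p = 0.00701), and the adjusted p reached 0.524 without control library 1. Without dDAVP library 1, Atp1b1 was called as well (log2 fold change 0.79, adjusted p = 0.0284).

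Outside libraries 1 to 3 the groups of Fxyd4 overlapped. Its values in libraries 4 to 6 were 12.22, 54.36 and 5.439 FPKM under dDAVP and 11.42, 61.91 and 27.39 FPKM in control. Libraries dDAVP 5 and control 5 were the high ones. In the last set they were 36.22, 128.4 and 108.5 FPKM under dDAVP and 93.14, 44.45 and 13.3 FPKM in control. The log2 fold changes were -0.25 (SE 0.62) and 0.31 (SE 0.72), and the first turned to 0.02 without dDAVP library 4 and to 0.28 without control library 5, the second to -0.05 without control library 9. Over all libraries with the set term the log2 fold change was 0.53 (SE 0.35, edgeR adjusted p = 0.856; exact permutation p within sets 0.135). This value was 0.66 without dDAVP library 6, 0.87 without libraries 4 to 6 and 0.10 without libraries 1 to 3. Voom with quality weights gave 1.27 with an adjusted p of 0.00245, and without covariates edgeR gave 1.19 (SE 0.84). The edgeR test of unequal effects between the sets gave an adjusted p of 0.925.

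**Figure D2:**
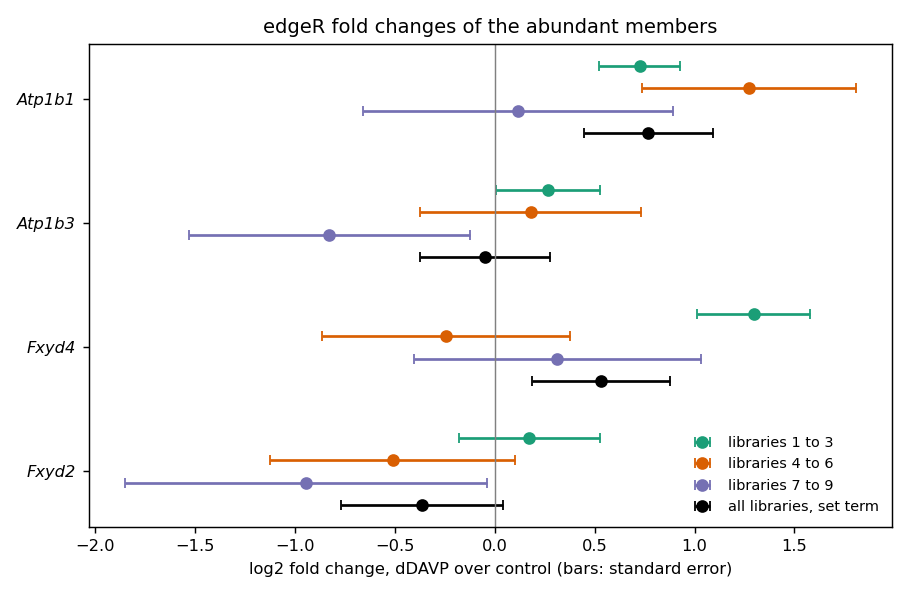
Log2 fold change of dDAVP over control from edgeR for the 4 abundant genes, in each set of libraries and over all libraries with the set as a term; bars show the standard error. Fxyd4 in libraries 1 to 3 (1.30, SE 0.28) and Atp1b1 in libraries 1 to 3 (0.73, SE 0.20) lie farthest from 0 relative to their bars, and the bars are widest in libraries 7 to 9.

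Fxyd2, the gamma subunit (chromosome 9, 45399669 to 45410278, plus strand), was the member with the highest median in libraries 7 to 9. It had 43.26, 72.07 and 89.17 FPKM in dDAVP libraries 1 to 3 and 33.42, 77.1 and 71.89 FPKM in control libraries 1 to 3. These groups overlapped, with a log2 fold change of 0.17 (SE 0.35) that turned to -0.06 without dDAVP library 3 and to -0.08 without control library 1. Libraries 4 to 6 held 5.588, 23.61 and 3.318 FPKM with dDAVP and 9.014, 24.64 and 20.87 FPKM without. The high libraries were again those numbered 5, with control 6. Libraries 7 to 9 held 225.5, 144 and 83.25 FPKM with dDAVP and 72.48, 314.5 and 237.7 FPKM without. The highest values were thus in dDAVP 7, control 8 and control 9, the opposite of Atp1b1 on the FPKM scale. Log2 fold changes were -0.51 (SE 0.61) and -0.95 (SE 0.90) in these sets and -0.36 (SE 0.41, edgeR adjusted p = 0.940) with the set term, which turned to 0.19 under voom with quality weights.

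Fxyd5, or dysadherin, a regulator that also loosens cell adhesion (chromosome 7, 31032722 to 31042481, minus strand), was the member whose groups did not overlap in FPKM in libraries 4 to 6. It had 2, 1 and 0 counts in dDAVP libraries 4 to 6 and 10, 31 and 28 counts in control libraries 4 to 6. On the scaled totals this is a ratio of 0.0538, with an exact 95% interval of 0.0108 to 0.164 from counting error alone. This interval was worked out for this gene and set only, with the counts known, so it is a description. With these counts the gene passed the filter on low counts only through the control libraries. The edgeR test, which also holds the spread between libraries, gave an adjusted p of 0.999. Its log2 fold change was -4.04 (SE 1.63), and -3.74 (SE 1.98) without dDAVP library 6. In libraries 1 to 3 the counts were 11, 2 and 10 under dDAVP and 2, 2 and 7 in control. For libraries 7 to 9 they were 367, 9 and 135 under dDAVP and 144, 288 and 105 in control, where dDAVP 8 was the lowest. The log2 fold change in that set was -0.81 (SE 1.33, edgeR adjusted p = 0.967). The edgeR test of unequal effects between the sets gave an adjusted p of 0.713, and 0% of genes passed that test (0 of 10121, with 671 below 0.05 before adjustment). With the set term the log2 fold change was -0.99 (SE 0.83, edgeR adjusted p = 0.899), and it was 0.05 without libraries 4 to 6.

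Counted over the 8 members on the FPKM scale, all dDAVP libraries lay above all control libraries for 2 members in libraries 1 to 3 (Atp1b1 and Fxyd4), where 10.9% of genes tested did so and 3.79% lay below. They lay below for 1 member in libraries 4 to 6 (Fxyd5), where 5.74% of genes did so and 1.56% lay above, and none was separated in libraries 7 to 9, where 7.93% of genes lay above and 2.32% below. These shares are over genes that passed the filter. Atp1b2, Fxyd3, Fxyd5 and Fxyd6 did not pass it in libraries 1 to 3, nor did Fxyd3 in libraries 4 to 6, so the bases differ. With 3 libraries against 3, an exact permutation test of a single gene cannot go below p = 0.1.

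Fxyd3, a regulator known from epithelia and tumours (chromosome 7, 31068172 to 31076704, minus strand), was at or under 1.891 FPKM in libraries 1 to 6 of both groups. All of dDAVP libraries 4 to 6 had 0 counts, as had control libraries 4 and 6, while control 5 had 18 counts. Libraries 7 to 9 held 66, 104 and 404 counts under dDAVP and 67, 127 and 9 counts in control. The 404 counts of dDAVP 9 (10.59 FPKM) were the highest value of the gene and control 9 was the lowest library of this set. Its log2 fold change with the set term was -0.35 (SE 0.85, edgeR adjusted p = 0.974), and it was 0.48 without libraries 4 to 6, 0.47 without control library 5, 0.24 with voom and quality weights, and 0.20 and 0.09 with FPKM. Fxyd6, known from the brain and inner ear (chromosome 9, 45370185 to 45396159, plus strand), reached at most 0.593 FPKM (29 counts, dDAVP 6), and its counts were 0 to 54 in dDAVP libraries and 0 to 19 in control libraries. It did not pass the filter over all libraries (exact permutation p within sets 0.225). Fxyd6 passed within libraries 4 to 6 (log2 fold change 2.78, SE 1.94, edgeR adjusted p = 0.999). It also passed within libraries 7 to 9 (-0.37, SE 1.97, edgeR adjusted p = 0.991). Other settings gave 0.19 to 4.13 and -4.82 to 0.55.

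**Figure D3:**
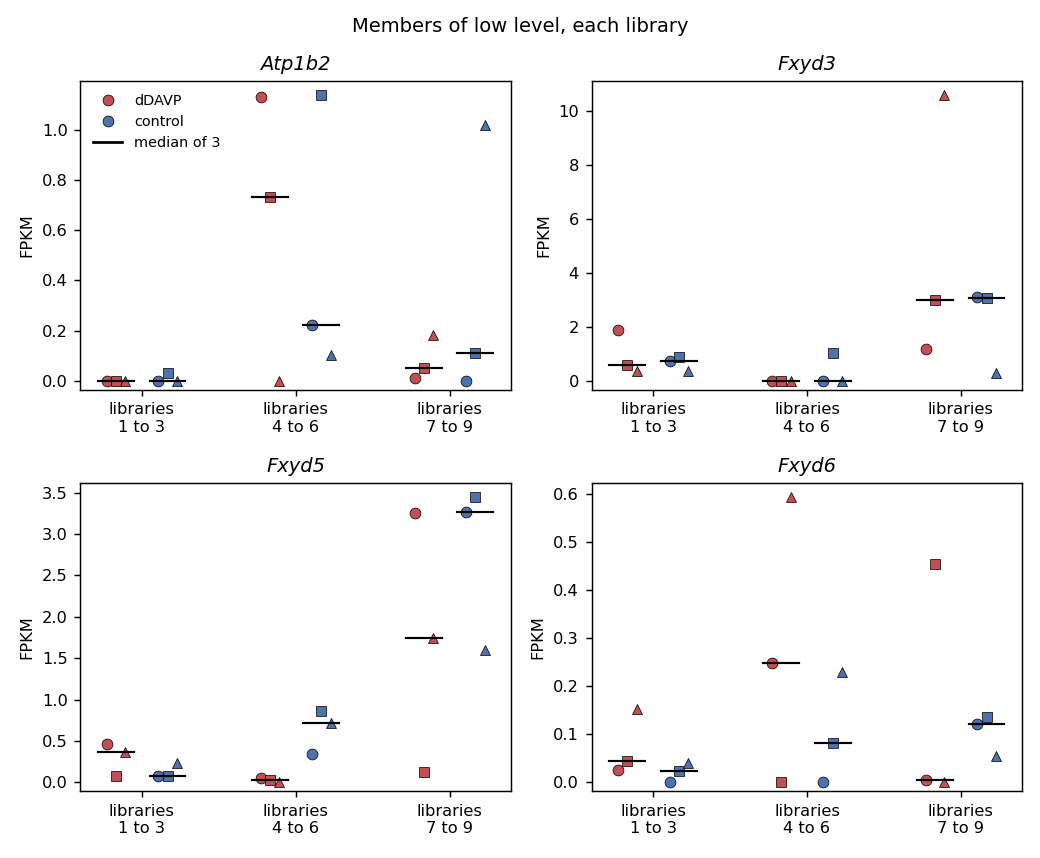
FPKM (linear axes that differ between panels) of the 4 genes of low level in each library, dDAVP in red and control in blue, with circles, squares and triangles for the libraries of a set in number order and a line at the median. Most points lie near 0, Fxyd5 has no dDAVP point above 0.0557 FPKM in libraries 4 to 6, and the Fxyd3 point of dDAVP 9 (10.59) lies far above the rest.

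The order of levels, set on FPKM because it corrects for gene length, was the same for the leading genes in both groups of libraries 1 to 3. Atp1b1 was first and Fxyd4 second in both, with separate ranges, followed by Atp1b3 and Fxyd2, whose ranges overlapped, and then by the 4 genes of low level. The median of Fxyd3, the highest of those 4, was 0.5975 FPKM under dDAVP and 0.7221 FPKM in control. Atp1b1 still had the highest median (31.44 FPKM under dDAVP, 27.85 in control) in libraries 4 to 6, but its range overlapped that of the next gene, Atp1b3 under dDAVP and Fxyd4 in control. Fxyd2 was first in libraries 7 to 9 (median 144 FPKM under dDAVP and 237.7 in control) and Fxyd4 second (108.5 and 44.45 FPKM), with overlapping ranges.

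Ratios of 2 genes within a library do not depend on how libraries are scaled. Atp1b1 exceeded Atp1b3 by 6.663, 9.527 and 5.082 times in dDAVP libraries 1 to 3 and by 4.652 to 5.118 times in control libraries 1 to 3, so dDAVP 3 lay within the control range. Over libraries 4 to 6 the ratio was 1.088 to 11.22 under dDAVP, highest in dDAVP 6, and 0.829 to 1.735 in control. The last set had 1.13, 1.962 and 2.601 in dDAVP libraries 7, 8 and 9 and 0.7261 to 1.106 in control. These groups did not overlap, but dDAVP 7 (1.13) lay close above control 7 (1.106). As a share of the summed FPKM of the 3 beta subunit genes, Atp1b1 had medians of 86.95% under dDAVP and 82.44% in control in libraries 1 to 3, 64.65% and 54.65% in libraries 4 to 6, and 66.22% and 48.61% in libraries 7 to 9.

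The ratio of Fxyd4 to Fxyd2 was 7.895, 5.889 and 5.716 in dDAVP libraries 1 to 3 and 2.657 to 3.304 in control libraries 1 to 3, with no overlap. Fxyd4 thus held 84.98 to 88.21% of the summed FXYD FPKM under dDAVP and 72.48 to 76.34% in control there. Over libraries 4 to 6 the Fxyd4 to Fxyd2 ratio was 1.639 to 2.302 under dDAVP and 1.267 to 2.513 in control. Libraries 7 to 9 spread most widely, with 0.1606 in dDAVP 7, 0.8913 in dDAVP 8 and 1.303 in dDAVP 9, and 1.285 in control 7, 0.1414 in control 8 and 0.05594 in control 9. The 3 low values belonged to dDAVP 7, control 8 and control 9. The summed FXYD level over the summed beta subunit level was 0.2731 to 0.673 in dDAVP libraries 4 to 6, below the 0.7856 to 1.118 of control libraries 4 to 6 (0.3487 and 0.673 without dDAVP 6), while in libraries 1 to 3 and 7 to 9 the groups overlapped. No test was made of these ratios. How often ratios of other genes separate the groups was not worked out, so the separations are descriptions.

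**Figure D4:**
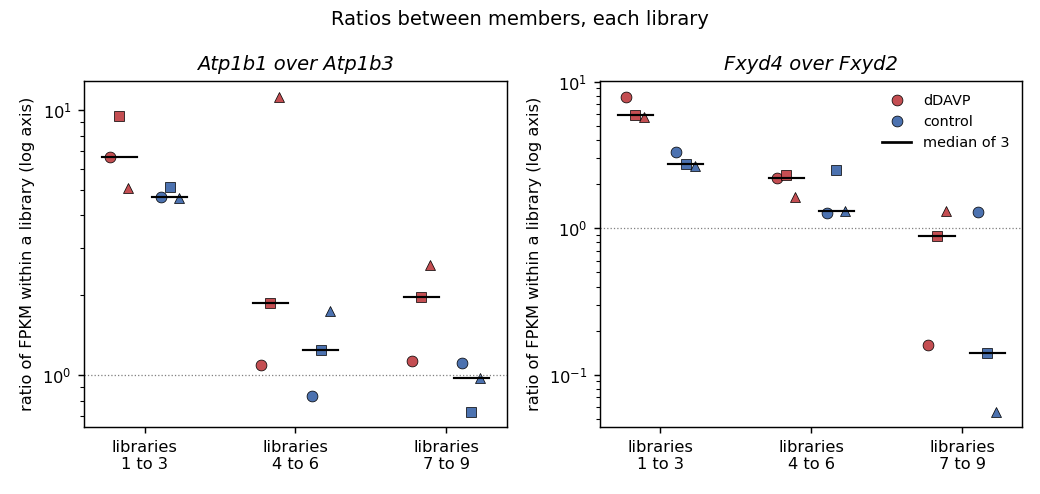
Ratio of FPKM within each library (log axis), Atp1b1 over Atp1b3 on the left and Fxyd4 over Fxyd2 on the right, dDAVP in red and control in blue, with circles, squares and triangles for the libraries of a set in number order and a line at the median; the dotted line marks equal levels. The Fxyd4 to Fxyd2 ratio separates the groups in libraries 1 to 3 (5.716 to 7.895 against 2.657 to 3.304). The Atp1b1 to Atp1b3 ratio does so in libraries 7 to 9 (1.13 to 2.601 against 0.7261 to 1.106). How often ratios of other genes do so was not worked out.

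Between sets of control libraries, 4 members were called in each comparison. Relative to control libraries 1 to 3, Atp1b1 was lower in control libraries 4 to 6 (log2 fold change -4.30, SE 0.62, edgeR adjusted p = 0.000151) and in control libraries 7 to 9 (-4.55, SE 0.63, adjusted p = 0.000172). Fxyd4 was lower in both as well (-2.91, SE 0.59, adjusted p = 0.00174, and -3.20, SE 0.60, adjusted p = 0.000768), as was Atp1b3 (-2.31, SE 0.53, adjusted p = 0.00370, and -2.27, SE 0.52, adjusted p = 0.00296). Fxyd2 fell in libraries 4 to 6 by 2.22 on the log2 scale (SE 0.65, adjusted p = 0.0167), a call lost without control library 2, 3, 4 or 6 (adjusted p up to 0.0708), and had 0.81 (SE 0.63, adjusted p = 0.297) in libraries 7 to 9, which passed without control library 7 (1.30, adjusted p = 0.0170). Fxyd5 rose in libraries 7 to 9 by 3.14 (SE 1.03, adjusted p = 0.0213), a call lost without a filter on low counts (adjusted p = 0.0541) and without control library 1, 2, 3 or 8 (adjusted p up to 0.123). Atp1b2 missed the threshold in both (adjusted p = 0.0674 and 0.0790) and passed it without control library 7 (adjusted p = 0.0239 and 0.0205) and, for libraries 4 to 6, without a filter on low counts (adjusted p = 0.0497). Fxyd3 missed it in libraries 4 to 6 (adjusted p = 0.411) and passed it without control library 5 (adjusted p = 0.0423). Of the members tested, 4 of 7 were thus called lower in libraries 4 to 6, where 37.5% of all genes were called, 17.5% lower and 20% higher, and 3 of 7 were called lower and 1 higher in libraries 7 to 9, where 49% were called, 20.5% lower and 28.5% higher. Both comparisons share control libraries 1 to 3, and the sets also differ in depth and in ribosomal protein content, as given above, and in Rn45s, the ribosomal RNA precursor gene, which took at most 0.00682% of counts in the first 6 numbers but between 0.213 and 3.04% in the last 3. The part of these differences in the results was not tested.

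**Figure D5:**
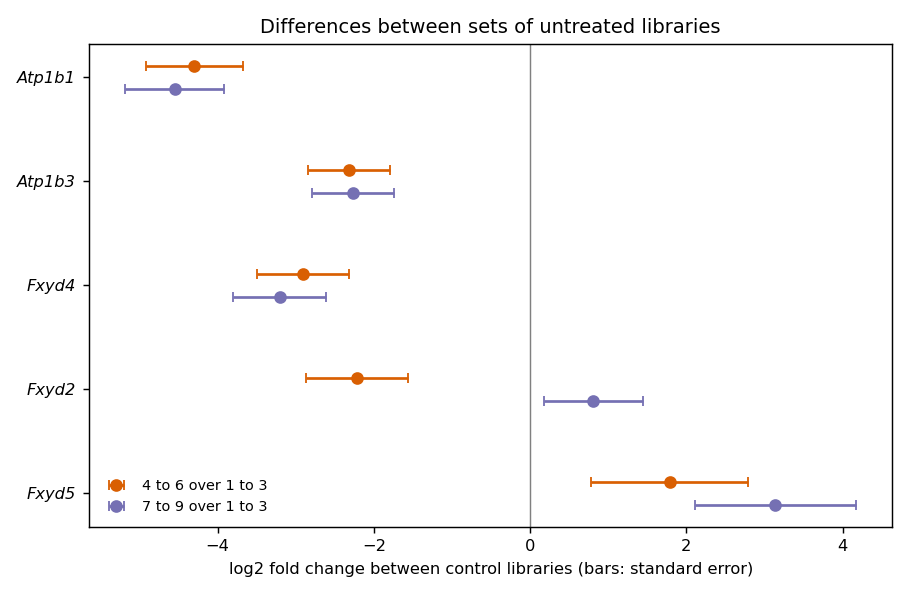
Log2 fold change between sets of control libraries from edgeR, libraries 4 to 6 over 1 to 3 (orange) and 7 to 9 over 1 to 3 (violet); bars show the standard error. Atp1b1, Atp1b3 and Fxyd4 lie below -2 in both comparisons, whereas Fxyd2 is below 0 in libraries 4 to 6 only and Fxyd5 is above 0 in both.

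Genes whose levels followed a member most closely over the 18 libraries, once the mean of each set was removed, were sought among 9240 genes. For Atp1b1 these were Dctd (Pearson r 0.899), Rlim (0.879) and Skap2 (0.864), and for Fxyd4 they were Abhd14b (0.812), Plekha6 (0.810) and Sdcbp2 (0.765). For Atp1b3 they were Cks2 (0.866), Vhl (0.865) and Cd47 (0.858), and for Fxyd2 Stk11 (0.912), Pop7 (0.903) and Rab35 (0.902). Fxyd3 was closest to Rpusd4 (0.755), Cnnm3 (0.753) and Gabpb2 (0.734), and Fxyd5 to D8Ertd738e (0.854), Ascc2 (0.846) and Sars2 (0.842). Between members, the same measure was 0.27 for Atp1b1 with Fxyd4, -0.66 for Atp1b1 with Fxyd5 and 0.57 for Fxyd2 with Fxyd5. The points share their library and its depth and the division of libraries 7 to 9, so these values are descriptions.

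Lists of other genes, 3 in all, around the pump were counted beside the members. Of 16 relatives and partners of the pump (other FXYD, beta subunit, H,K-ATPase and Nkain genes and cytoskeletal anchors), 6 passed the filter over all libraries. Fxyd1, Fxyd7, Atp1b4, Atp4b, Atp12a, Nkain2, Nkain3 and Nkain4 had 0 counts throughout. None of the list was called in any comparison of dDAVP with control, and with the set term its median log2 fold change was 0.28, beside 0.02 over all genes tested. Its most abundant members were Sptan1, the alpha-spectrin of the membrane skeleton, with 0.61 (SE 0.29, adjusted p = 0.816), and the adducin gene Add1, with 0.22 (SE 0.35, adjusted p = 0.960). Sptan1 had 38.67 to 45.48 FPKM in dDAVP libraries 1 to 3 and 19.8 to 32.6 FPKM in control libraries 1 to 3. These did not overlap (log2 fold change 0.72, SE 0.24, edgeR adjusted p = 0.352), as for the 10.9% of genes tested that lay above in this set. Its groups overlapped in libraries 4 to 6 (1.59 to 5.834 against 3.459 to 3.979 FPKM). They also overlapped in libraries 7 to 9 (13.95 to 90.62 against 6.658 to 39.59 FPKM).

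Of 17 genes of aldosterone action and sodium transport regulation, 15 passed the filter, none was called, and the median log2 fold change with the set term was 0.18. The ubiquitin ligase gene Nedd4 had -0.25 (SE 0.42, adjusted p = 0.961), and Wnk1, a kinase that controls ion transport, had -0.09 (SE 0.40, adjusted p = 0.987). Of 13 basolateral channels and transporters 9 passed, none was called, and the median was 0.53. The anion exchanger gene Slc4a2 had 0.16 (SE 0.33, adjusted p = 0.973) and the calcium pump gene Atp2b1 had 0.53 (SE 0.45, adjusted p = 0.900). Within libraries 1 to 3, the medians of the 3 lists were -0.01, -0.38 and 0.46, beside -0.01 over all genes tested. Within the sets no gene of the 3 lists was called by edgeR either.

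Several list genes were called between sets of control libraries by edgeR, as were many genes of the whole table. Of all genes tested, 20% were called higher and 17.5% lower in libraries 4 to 6 (37.5% in either direction). In libraries 7 to 9 these shares were 28.5% higher and 20.5% lower (49% in either direction). Whether the lists differ from these shares was not tested. Relative to libraries 1 to 3, 2 of 7 relatives and partners were called lower in libraries 4 to 6, Sptan1 (-3.09, adjusted p = 0.000586) and Sptbn1 (-1.86, adjusted p = 0.0207). Of 15 aldosterone genes 3 were called higher and 4 lower, led by Hsd11b2, which inactivates glucocorticoids (4.00, adjusted p = 0.000244), the kinase gene Sik1 (5.61, adjusted p = 0.000638) and Wnk1 (-4.14, adjusted p = 0.00140). Of 9 basolateral genes 3 were called higher, among them Atp2b1 (2.46, adjusted p = 0.0147) and the chloride channel gene Clcn2 (4.48, adjusted p = 0.0210). For libraries 7 to 9 relative to 1 to 3 the called counts were 1 higher and 2 lower of 7, 4 higher and 6 lower of 15, and 3 higher and 1 lower of 9. Among relatives and partners these were Sptbn1 (-4.41, adjusted p = 0.000206), Sptan1 (-1.57, adjusted p = 0.0194) and Nkain1 (3.76, adjusted p = 0.0413). The leading aldosterone genes were Nedd4 (-4.81, adjusted p = 0.000637), Wnk1 (-4.22, adjusted p = 0.000964) and Sik1 (4.56, adjusted p = 0.00158). The called basolateral genes included Atp2b1 (-2.80, adjusted p = 0.00555) and Bsnd, a chloride channel subunit gene (2.36, adjusted p = 0.0122).

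If counting ignored strand, reads of 2 members that overlap a gene on the opposite strand could be lost or mixed with it. The strand setting is not given in the sources used here. Nme7 overlaps Atp1b1 and had 82 to 295, 38 to 294 and 112 to 2072 counts in libraries 1 to 3, 4 to 6 and 7 to 9, beside 20045 to 43996, 849 to 7340 and 2275 to 20231 counts of Atp1b1. Lgi4 overlaps Fxyd3 and had at most 1 count in libraries 1 to 6 and at most 28 counts in libraries 7 to 9. On the same strand, the microRNA genes Gm25535 and Mir7050 overlap Fxyd4 and Fxyd5, and their part was not tested.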

How the data were processed

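RNA sequencing of 18 libraries was grouped by label. Total RNA (20 ng) was read as single ends of 50 bp, per the labels' protocols. The submitters' processing notes name HTSeq, SAMtools, STAR 2.4.0.1 and mm10. Annotation and strand setting are not given in the sources used here. The deposited counts are raw whole-number counts per gene symbol. The authors' deposited FPKM are these counts scaled by a fixed gene length and the library's counted reads: the length implied by both tables varied by at most 0.0188% within a member, over libraries with enough counts.

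Counts were tested with edgeR 4.0.16 (quasi-likelihood, trimmed mean of M-values scaling, filterByExpr), with p-values adjusted by Benjamini-Hochberg over all genes tested and a threshold of 0.05, in R 4.3.3. Alternatives were other scaling and filters (none, or 1 CPM), DESeq2 1.42.0, limma 3.58.1 on log2(FPKM + 1) or with 0.1 in place of 1, voom with quality weights, the replicate block, and leaving out each library or set. Single genes were tested by two-sided exact permutation of mean log2(normalised CPM + 1), with scaling factors from all 18 libraries. The same scaling gave the correlations, the marker sums and the floors of 3 counts. Positions came from the GENCODE annotation of GRCm38, promoters from RefSeq. Python 3.11.15 and matplotlib 3.10.9 drew the figures. The fits were also run on simulated counts, with large changes in abundant genes and the same spread for every gene. That setting is easier than these libraries, so it checked the code and not the power for genes of low level.

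The members, the sets, the 3 gene lists and the tests were chosen with earlier results of these data known. All 8 members are named in every case, with up to 3 called genes of a list, or else its 2 most abundant as values only, and the 3 genes most like each tested member. 1 called gene of the basolateral list is not reported here. Libraries of equal number deviated together from the group means (r of 0.40 to 0.93 for numbers 1 to 9, across genes), but r was -0.71 to 0.43 once set means were removed. The block was therefore an alternative to every fit of dDAVP against control, with its counts given beside those over all libraries. It was not run for the test of unequal effects or between control sets. Pairs of libraries within a group differed by a chi-square of at least 71.6 per degree of freedom, so none was a repeat deposit. Fold intervals are 1.96 SE wide on each side. Count intervals and floors of 3 counts hold counting error alone: with no molecular identifiers, reads are not separate molecules.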

Additional observations from a re-analysis of the deposited data

Results flagged for a closer look

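Fxyd3 had 10.59 FPKM (404 counts) in dDAVP library 9, and the next highest of the 9 dDAVP libraries, dDAVP 8, had 2.985 FPKM. The gap is 0.718 of the range of the 9 libraries, above the critical value of 0.493. For values from 1 normal distribution, chance alone marks about 1 in 20 groups, and 16 groups (8 genes in 2 treatments) were examined. The 9 libraries come from 3 sets that differ in level and depth, so this rate need not hold here. In libraries 7 to 9 the log2 fold change of Fxyd3 was 0.51 (SE 1.36, edgeR adjusted p = 0.978) with this library and -0.44 without it.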

How the results depend on the processing

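Depth and the spread between libraries limit these results: the 4 genes of low level had a few counts in many libraries, and each set holds 3 libraries a group. In all the settings run, Atp1b1 kept a positive sign in libraries 1 to 3 (0.69 to 0.79), in libraries 4 to 6 (0.67 to 1.58), with the set term (0.49 to 1.10) and over all libraries (0.39 to 1.28), and Fxyd4 did so in libraries 1 to 3 (1.11 to 1.52). Of 307 member values under other settings 280 kept direction and side of the threshold, 6 gained a call and 1 lost it. Of 564 with a library left out these were 528, 6 and 8. The cause of the rest was not tested.

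With the replicate block, Fxyd4 in libraries 1 to 3 was called (1.29, adjusted p = 0.00758), and the block changed no other call of a member. The number of genes called over all libraries (0) became 12 with DESeq2, 1 with the block, 2 with FPKM at either pseudocount and 11 with voom weights. With the set term, 8 became 5 with library totals only, 31 with DESeq2, 1 with the block, 4 with FPKM at either pseudocount, 118 with voom weights, and 0 without libraries 1 to 3 or 4 to 6. In libraries 1 to 3, 41 became 207 with no filter, 123 with DESeq2 and 101 with the block. In libraries 4 to 6, 0 became 1 with no filter, 1 with totals only and 29 with DESeq2. In libraries 7 to 9, 0 became 30 with no filter, 7 with totals only, 94 with DESeq2, 3 with the block and 2 with FPKM at a pseudocount of 0.1. For the unequal effects between sets, 0 became 35 with no filter.

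With 1 library left out, the counts ranged from 0 to 1 over all libraries, 4 to 9 with the set term, 13 to 774, 0 to 2 and 0 to 98 in the sets, 0 to 45 for unequal effects, and 2544 to 5108 and 3835 to 6396 for control libraries 4 to 6 and 7 to 9 against 1 to 3. The mean log2 difference of Atp1b1 (0.77) had an exact permutation p of 0.0272 within sets and 0.485 over all libraries. Neither p is adjusted over the members.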
